A study of Arabidopsis thaliana with 4 samples.

Results

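Xyloglucan endotransglucosylase/hydrolases (XTHs) and expansins are secreted proteins that act on the growing plant cell wall. The 40 genes described here were chosen by locus from the 33059 features of the table. They comprise 22 XTH genes, 12 alpha-expansins (EXPA), 2 beta-expansins (EXPB) and 4 expansin-like genes (3 of the EXLA group and EXLB1). Messenger RNA came from the rosette leaves of Arabidopsis thaliana at an age of 28 days. OE plants overexpressed the ethylene response factor ERF4 from the CaMV 35S promoter, a viral promoter active in most plant cells, and wild-type (WT) plants carried no such construct. Each genotype had 2 libraries, and the labels do not say whether they came from separate plants, nor how many transgenic lines stand behind the OE libraries. P-values therefore reflect how far these libraries scatter, which may be a technical matter.

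Xyloglucan is the main hemicellulose of the primary wall in Arabidopsis and coats and tethers cellulose microfibrils. XTH enzymes cut a xyloglucan chain and join the new end to another chain, or to water in the case of the few members that mainly hydrolyse. Expansins loosen the wall without cutting it, and both families are known from leaf expansion, touch, shade and hormone responses.

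Values were in TPM (transcript abundance scaled to a fixed library total), which correct for transcript length, so levels of different genes can be set side by side while the depth of each library is unknown. ERF4 (AT3G15210) had 24.5 and 28.8 TPM in the OE libraries, against 9.68 and 10.6 TPM in the WT libraries, the direction the labels give (limma adjusted p = 0.381). Correlations between libraries across 20010 features on the log2 scale were 0.942 within OE and 0.918 within WT, and 0.903 to 0.946 between genotypes. In 42.9% of tested features WT replicate 1 had the lowest of the 4 values. Light-harvesting transcripts differed within both genotypes, with LHB1B1 at 68.2 and 1925 TPM in the OE libraries and 2389 and 26.6 TPM in the WT libraries. The 5 mesophyll markers together reached 20676 and 23598 TPM in OE and 39325 and 14177 TPM in WT, while the 5 flower markers summed to 0.65 to 4.65 TPM. The 6 markers of root cells, of which SCR and SHR are also known from leaves, summed to 341 and 264 TPM in OE and 324 and 558 TPM in WT. PRP3 made up most of each sum, and CASP1 had 29.3 to 47.7 TPM and COBL9 6.51 to 7.66 TPM over the 4 libraries. NRT2.1 was listed at 0 in both OE libraries and in WT replicate 1. Where the root marker transcripts in these libraries come from was not tested. None of the marker lists for mesophyll, root, xylem, phloem, guard cell, epidermis, dividing cell or flower had a member with an unadjusted limma p under 0.05. Such a p was reached by 5.30% of all tested features. Among 4 seed markers the summed level was 0.51 and 3.74 TPM in OE against 42.7 and 49.5 TPM in WT, and 1 of the 3 tested, the storage protein gene CRU3, fell (limma adjusted p = 0.0182). The part of these differences in the results below was not tested.

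XTH22, the touch-induced gene also called TCH4, rose 14.3-fold in OE leaves by the ratio of mean TPM (fitted log2 fold change 3.62). Several of its relatives (XTH23, XTH24, XTH25, XTH15, XTH18 and XTH30) had both OE libraries above both WT libraries. Of the 12 alpha-expansins 6 lay on the other side and 6 had overlapping groups. EXPA1, EXPA4, EXPA5, EXPA6, EXPA10 and EXPA15 were lower in each OE library than in either WT library, as were both beta-expansins. Of the 40 genes, 38 averaged 1 TPM or more and were tested. XTH22 alone passed (limma on log2(TPM + 1), p adjusted after Benjamini and Hochberg across every tested feature, threshold 0.05), which makes 1 member higher and 0 lower of 38. Of all tested features 0.0900% passed, 0.0600% as higher and 0.0300% as lower. At an unadjusted limma p under 0.05, 8 members were higher and 8 lower in OE, beside 2.69% and 2.61% of all tested features, or 5.30% in either direction. The groups did not overlap, with OE higher, for 13 of the 38, against 13.7% of all features, and with OE lower for 11, against 14.2%. The members were picked with these data in view, so such shares describe the list and do not test it. In whole leaves, fewer cells of a type and less RNA per cell cannot be told apart.

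**Figure D1:**
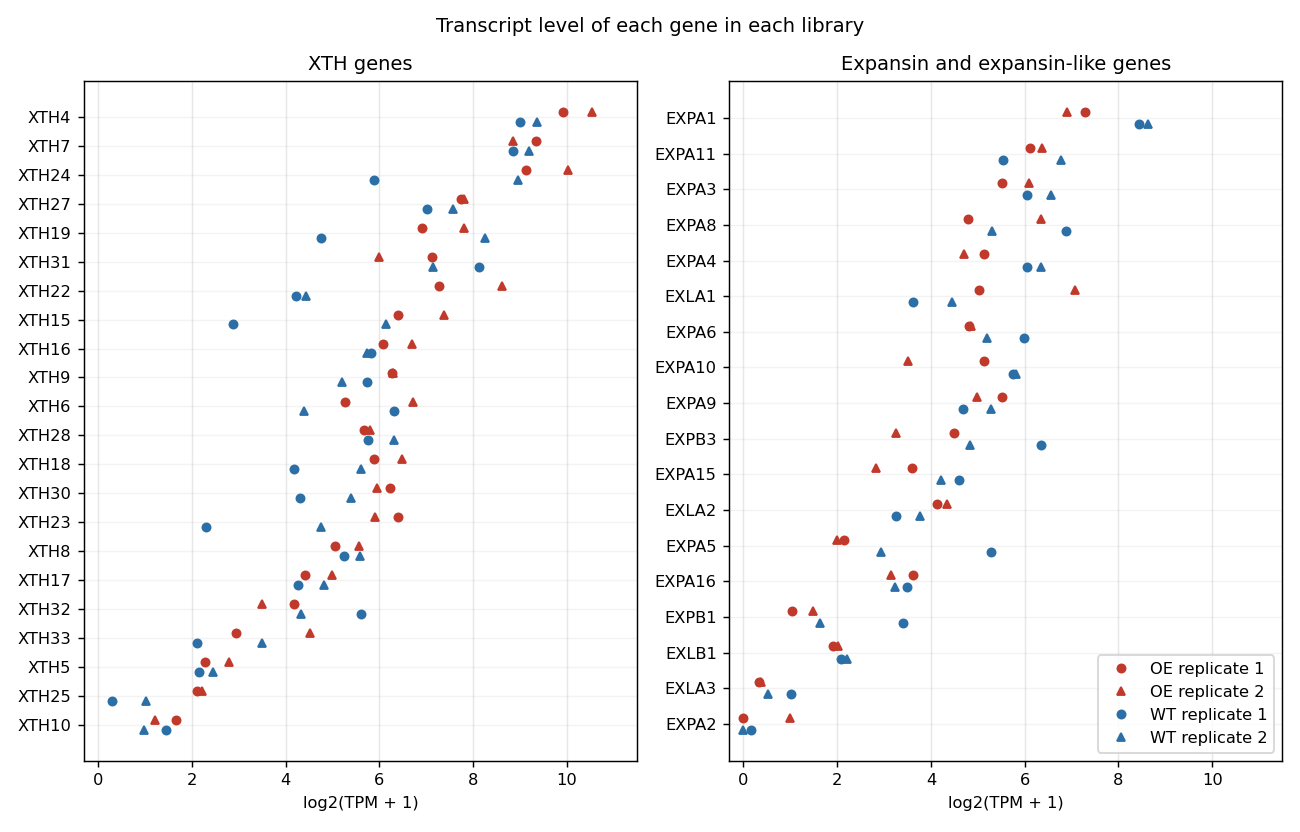
Level of each of the 40 genes in each library as log2(TPM + 1), with OE libraries in red and WT libraries in blue, circles for replicate 1 and triangles for replicate 2, and genes ordered by their mean. The red points of XTH22 lie far to the right of both blue points, those of EXPA1 to the left, and WT replicate 1 stands far below the other 3 libraries for XTH24, XTH19, XTH15 and XTH23.

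The promoters below belong to the gene that passed the threshold (XTH22), its closest relative by coding sequence (XTH23), the most abundant expansin (EXPA1) and the expansin-like gene with the largest difference (EXLA1). They are shown because ERF4 belongs to a family of factors that bind the GCC box. Each is the run of 250 bases before the gene start in RefSeq's annotation of TAIR10.1, read 5′ to 3′ on the gene's strand. Loci were matched by locus tag, since the table gives no coordinates and its own build is not given in the sources used here. XTH22 lies at chr5:23308681-23308930, minus strand, XTH23 at chr4:13128144-13128393, plus strand, EXPA1 at chr1:26141476-26141725, plus strand and EXLA1 at chr3:16895916-16896165, plus strand. Capitals mark every match, on either strand, to the GCC box GCCGCC, the G-box CACGTG, the brassinosteroid response element CGTGTG (also searched in its variant form CGTGCG), the W-box core TTGAC and the CAMTA core CGCG. The brassinosteroid element can share letters with the G-box and with the CAMTA core.
XTH22: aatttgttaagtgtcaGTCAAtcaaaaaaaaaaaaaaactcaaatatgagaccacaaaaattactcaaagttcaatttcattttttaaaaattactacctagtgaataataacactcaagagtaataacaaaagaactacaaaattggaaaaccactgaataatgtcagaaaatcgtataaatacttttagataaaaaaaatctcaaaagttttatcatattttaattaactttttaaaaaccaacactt
XTH23: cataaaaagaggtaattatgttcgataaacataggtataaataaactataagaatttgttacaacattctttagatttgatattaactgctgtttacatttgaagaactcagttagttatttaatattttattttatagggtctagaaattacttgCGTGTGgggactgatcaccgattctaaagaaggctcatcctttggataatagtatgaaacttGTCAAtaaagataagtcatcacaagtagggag
EXPA1: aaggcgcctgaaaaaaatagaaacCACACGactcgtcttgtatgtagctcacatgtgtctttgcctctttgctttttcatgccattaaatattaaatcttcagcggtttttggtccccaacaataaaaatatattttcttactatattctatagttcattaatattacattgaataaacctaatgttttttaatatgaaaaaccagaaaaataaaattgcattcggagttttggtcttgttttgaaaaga
EXLA1: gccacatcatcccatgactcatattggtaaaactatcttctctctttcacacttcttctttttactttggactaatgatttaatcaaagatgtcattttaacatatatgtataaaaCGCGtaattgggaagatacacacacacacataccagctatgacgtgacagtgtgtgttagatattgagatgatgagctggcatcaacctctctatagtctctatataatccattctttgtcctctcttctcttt

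None of the 22 XTH and 18 expansin promoters held GCCGCC, which 1.87% of the 27443 promoters of protein-coding loci hold, and none held CACGTG, found in 6.49%. The W-box core, the centre of WRKY binding sites, was in 11 of 22 XTH promoters and 4 of 18 expansin promoters, against 44.9% of all. Its letters stood in the XTH22 window 234 bases and in the XTH23 window 32 bases before the gene start. The brassinosteroid response element was in 3 XTH promoters (XTH23, XTH25 and XTH8) and 5 expansin promoters (EXPA1, EXPA2, EXPA6, EXPB3 and EXLA2), against 6.71% of all. The CAMTA core, known from rapid responses to touch and wounding, was in 1 XTH promoter (XTH18) and 3 expansin promoters (EXPA6, EXLA1 and EXLA3), against 2783 of the 27443. These matches describe letters in windows of one length and say nothing of binding.

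XTH22 (AT5G57560) encodes an endotransglucosylase induced by touch, darkness, brassinosteroids and auxin. XTH22 transcripts stood at 154 and 393 TPM in OE, against 17.7 and 20.6 TPM in WT. Both OE libraries were far above both WT libraries, and the WT values were close together while the OE values differed 2.55-fold. The means were 274 ± 169 TPM in OE and 19.2 ± 2.06 TPM in WT (SD, n = 2 each), and the log2 fold change was 3.62 (SE 0.476, 95% interval 2.57 to 4.67, limma adjusted p = 0.0219). Among the 40 genes it ranked 4th by mean level in OE and 28th in WT. Its share of the summed XTH transcripts was 4.53% and 8.34% in the OE libraries, against 0.942% and 0.717% in the WT libraries. The log2 fold change was 4.29 without OE replicate 1, 2.95 without OE replicate 2, and, with a WT library left out, 3.51 (replicate 1) or 3.72 (replicate 2). The call was lost when either WT library was left out (limma adjusted p = 0.656 without replicate 1 and 0.267 without replicate 2), fits in which limma called 0 features, with 1123 and 1819 at an unadjusted p under 0.05. Over the 13 alternative settings the limma adjusted p ran from 1.79e-10 to 0.656, and 8 of them kept the call. The lowest of these p came from fits whose estimated prior degrees of freedom were far above the 8.73 of the fit to all libraries. With no library left out, the call was also lost without a filter, with quantile normalization and with median-ratio scaling (limma adjusted p = 0.461, 0.621 and 0.602). In those fits too limma called 0 features. The log2 fold change of XTH22 in them was 3.62, 3.55 and 3.63. Their prior degrees of freedom were 3.49, 3.21 and 3.18, below the 8.73 of the reported fit.

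XTH22 stands in a row of XTH genes on chromosome 5, next to XTH25 and near XTH13 and XTH12. XTH25 (AT5G57550), a weakly expressed neighbour, had 3.31 and 3.65 TPM in OE, against 0.23 and 1.03 TPM in WT. The groups did not overlap (95% interval of the log2 fold change 0.47 to 2.54, limma adjusted p = 0.510). XTH12 and XTH13, which are not among the 40, had log2 fold changes of -0.03 and -0.29, with 95% intervals of -0.96 to 0.89 and -1.15 to 0.57.

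XTH23 (AT4G25810), which shares 80.4% of its coding bases with XTH22, had 83.2 and 58.8 TPM in OE, against 3.92 and 25.9 TPM in WT. Both OE libraries lay above both WT libraries, yet the WT libraries themselves differed 6.60-fold (log2 fold change 2.63, SE 0.644, limma adjusted p = 0.279). XTH23 passed beside XTH22 when features averaging under 5 TPM were left out of the test. XTH14, its neighbour on chromosome 4 and not among the 40, had 75.0 and 56.0 TPM in OE and 60.6 and 85.3 TPM in WT, groups that overlapped.

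XTH24 (AT4G30270), also known as MERI5 and first described in meristems, was the second most abundant of the 40 in OE. It had 555 and 1038 TPM in OE, against 58.2 and 498 TPM in WT. The groups did not overlap, but OE replicate 1 stood close to WT replicate 2, and the log2 fold change of 2.14 (SE 0.832, limma adjusted p = 0.777) was 0.61 without WT replicate 1. XTH18 and XTH19 follow XTH24 on chromosome 4. XTH18 had 57.7 and 89.0 TPM in OE, against 17.1 and 47.6 TPM in WT (log2 fold change 1.29, SE 0.493, limma adjusted p = 0.746, and 0.58 on the log2 scale without WT replicate 1). XTH19 had 119 and 224 TPM in OE, against 26.2 and 302 TPM in WT. The groups of XTH19 overlapped because WT replicate 2 was the highest of all, and its log2 fold change of 0.86 turned to -0.88 without WT replicate 1. XTH17, XTH18 and XTH19 are close copies: XTH18 shares 92.2% of coding bases with XTH17, and 89.2% of those of XTH19 match XTH18. In XTH18 2.38% and in XTH19 2.68% of 50-base runs occur in another XTH gene, and how reads that match both were assigned was not tested. Neither XTH22 nor XTH23, XTH24, XTH25 or XTH15 shares a 50-base coding run with another XTH gene.

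XTH15 (AT4G14130), a gene that shade induces in leaf stalks, had 82.7 and 166 TPM in OE, against 6.34 and 69.6 TPM in WT. The groups did not overlap, but WT replicate 1 stood far below the other libraries, and the log2 fold change of 2.38 (SE 0.822, limma adjusted p = 0.614) was 0.74 without WT replicate 1. Its closest relative XTH16 had 66.6 and 102 TPM in OE, against 55.5 and 52.6 TPM in WT, also without overlap (log2 fold change 0.60, 95% interval -0.27 to 1.47). XTH17, another shade-induced gene, had 20.3 and 30.8 TPM in OE and 18.1 and 27.0 TPM in WT. Its groups overlapped.

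XTH4 (AT2G06850), an endotransglucosylase known from stems and leaves, gave the most abundant transcript of the 40 in both genotypes. It had 961 and 1478 TPM in OE, against 513 and 662 TPM in WT (log2 fold change 1.03, SE 0.558, limma adjusted p = 1.0). The OE libraries lay above the WT libraries. XTH7, the next by level in WT, had 648 and 462 TPM in OE and 462 and 586 TPM in WT. The XTH7 groups overlapped, and the difference was 0.07 on the log2 scale with an SE of 0.510. XTH9 (76.0 and 76.9 TPM in OE, against 52.4 and 36.0 TPM in WT) and XTH27, needed for leaf veins (214 and 223 TPM against 129 and 189 TPM), had both OE libraries higher. Their log2 fold changes of 0.80 and 0.48 had 95% intervals that took in 0.

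XTH30 (AT1G32170) had 74.2 and 61.1 TPM in OE, against 18.8 and 41.0 TPM in WT (log2 fold change 1.25, SE 0.434, limma adjusted p = 0.621, and 0.70 on the log2 scale without WT replicate 1). XTH31 and XTH32 belong to the branch with hydrolase activity. XTH31 (AT3G44990) had 137 and 62.4 TPM in OE, against 278 and 140 TPM in WT (log2 fold change -1.08, SE 0.516, limma adjusted p = 0.974). XTH32 (AT2G36870) had 17.1 and 10.3 TPM in OE, against 47.6 and 19.1 TPM in WT (log2 fold change -1.13, SE 0.466, limma adjusted p = 0.843). Without WT replicate 1 the log2 fold changes were -0.59 for XTH31 and -0.49 for XTH32, and without OE replicate 2 that of XTH31 was -0.52. These were the 2 XTH genes with both OE libraries below both WT libraries, by a small margin in each case. XTH33, which is held at the plasma membrane, and XTH28, known from stamen filaments, had overlapping groups with log2 fold changes of 0.93 and -0.29. The other XTH genes with overlapping groups, XTH5, XTH6, XTH8 and XTH10, had log2 fold changes of -0.10 to 0.64 and mean levels of 1.73 to 71.0 TPM in OE and 1.36 to 49.5 TPM in WT.

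**Figure D2:**
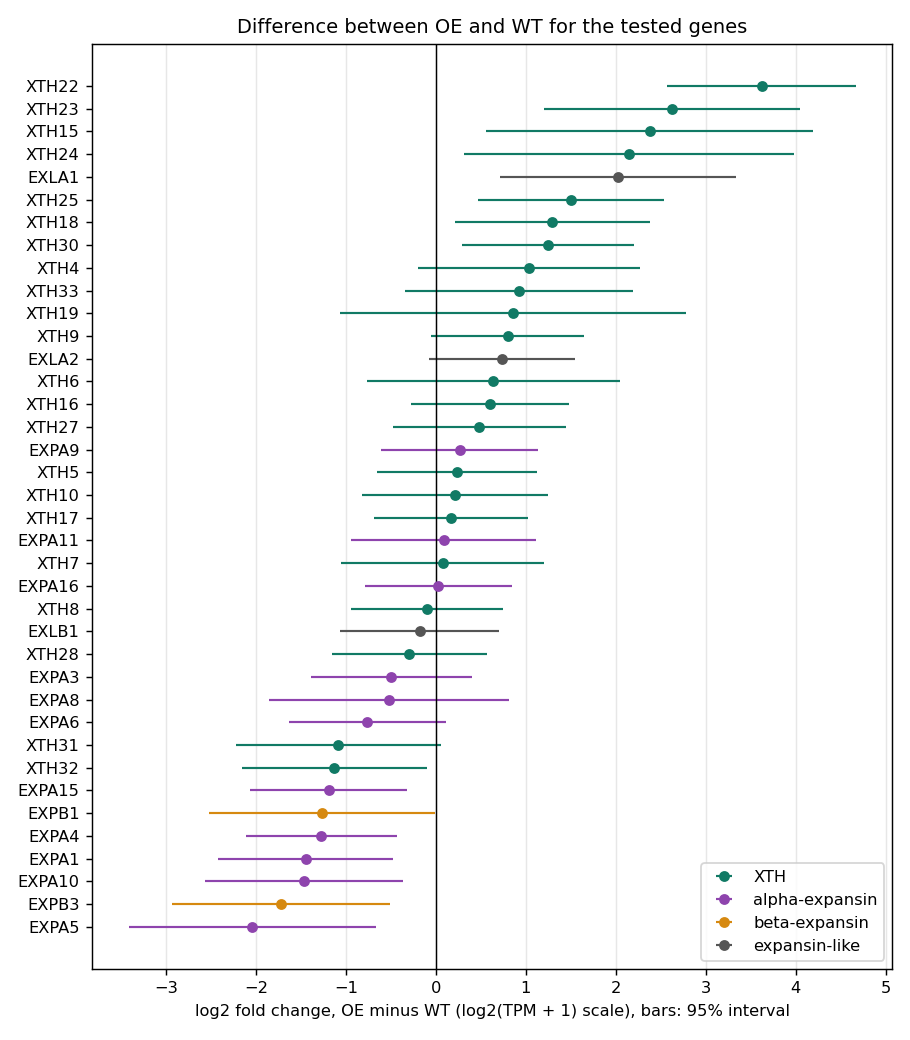
Log2 fold change of OE minus WT on the log2(TPM + 1) scale for the 38 tested genes, with 95% intervals from limma as bars and colours for XTH, alpha-expansin, beta-expansin and expansin-like genes. XTH22 heads the order at 3.62 and EXPA5 ends it at -2.04, most XTH genes stand right of 0 and most alpha- and beta-expansins left of it.

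EXPA1 (AT1G69530), an alpha-expansin of guard cells and growing leaves, had the highest mean level of the expansin genes in both genotypes, although EXLA1 was above it in OE replicate 2. It had 155 and 118 TPM in OE, against 346 and 396 TPM in WT. The libraries of each genotype were close together and the groups far apart, 137 ± 26.1 TPM in OE and 371 ± 35.8 TPM in WT (SD, n = 2 each), with a log2 fold change of -1.45 (SE 0.440, 95% interval -2.42 to -0.47). It did not pass over all features (limma adjusted p = 0.486, and 0 of 13 alternatives called it). By mean level EXPA1 ranked 7th of the 40 in OE and 3rd in WT. EXPA10 (AT1G26770), whose level is known to affect leaf size, had 34.0 and 10.4 TPM in OE, against 52.7 and 55.4 TPM in WT (log2 fold change -1.46, SE 0.498, limma adjusted p = 0.597). OE replicate 2 stood lowest by a wide margin, and the log2 fold change of EXPA10 was -0.65 without it and -2.27 without OE replicate 1.

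EXPA4 (AT2G39700) had 34.3 and 24.9 TPM in OE, against 64.8 and 80.5 TPM in WT (log2 fold change -1.28, SE 0.380, limma adjusted p = 0.465). EXPA15 (AT2G03090) had 11.1 and 6.13 TPM in OE, against 23.3 and 17.6 TPM in WT (log2 fold change -1.19, SE 0.393, limma adjusted p = 0.566). Neither overlapped between genotypes. With each of the 4 libraries left out in turn, EXPA4 kept a log2 fold change of -1.05 or lower and EXPA1 one between -1.64 and -1.25. EXPA5 (AT3G29030), an expansin linked to brassinosteroid-driven growth, had 3.40 and 2.99 TPM in OE, against 38.0 and 6.62 TPM in WT. Its WT libraries differed by far more than its OE libraries, and the log2 fold change of -2.04 (SE 0.622, limma adjusted p = 0.486) was -0.86 without WT replicate 1.

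EXPA6 had 27.0 and 27.9 TPM in OE, against 62.6 and 35.7 TPM in WT (log2 fold change -0.76, 95% interval -1.64 to 0.11). The remaining alpha-expansins had overlapping groups. EXPA3, EXPA8, EXPA9, EXPA11 and EXPA16 had log2 fold changes of -0.52 to 0.26, with mean levels of 9.59 to 75.0 TPM in OE and 9.29 to 79.2 TPM in WT. For EXPA16 the difference was 0.03 with a 95% interval of -0.79 to 0.85. EXPA2, known from germinating seeds, was not tested: it was listed at 0 and 0.98 TPM in OE, and at 0.11 and 0 TPM in WT.

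The beta-expansins followed the same order of groups. EXPB3 (AT4G28250) had 21.6 and 8.49 TPM in OE, against 80.2 and 27.7 TPM in WT (log2 fold change -1.72, SE 0.548, limma adjusted p = 0.527). EXPB1 (AT2G20750) had 1.06 and 1.78 TPM in OE, against 9.62 and 2.1 TPM in WT (log2 fold change -1.26, SE 0.569, limma adjusted p = 0.937). Both had their highest value in WT replicate 1, and without that library the log2 fold changes were -0.97 and -0.37.

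Expansin-like proteins have the 2 domains of expansins but no known wall-loosening activity. EXLA1 (AT3G45970) had 31.6 and 134 TPM in OE, against 11.2 and 20.7 TPM in WT (log2 fold change 2.02, SE 0.594, limma adjusted p = 0.450). Both OE libraries were higher, and OE replicate 2 was 4.24 times OE replicate 1. Without OE replicate 2 the log2 fold change of EXLA1 was 1.00, and without OE replicate 1 it was 3.05. EXLA2 had 16.6 and 19.3 TPM in OE, against 8.56 and 12.6 TPM in WT (log2 fold change 0.73, 95% interval -0.08 to 1.54). EXLA3, the neighbour of EXLA1 on chromosome 3 with 86.6% identical coding bases, was too low to test, at 0.26 and 0.29 TPM in OE and 1.01 and 0.44 TPM in WT. EXLB1 had 2.78 and 3.03 TPM in OE and 3.22 and 3.63 TPM in WT, with both OE libraries lower, by -0.18 on the log2 scale with a 95% interval of -1.07 to 0.71.

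Summed over the 22 XTH genes, transcripts reached 3401 and 4714 TPM in the OE libraries, against 1881 and 2878 TPM in the WT libraries. Without XTH22 the sums were 3247 and 4321 TPM in OE and 1863 and 2857 TPM in WT, so the order of the libraries did not rest on that gene. The 12 alpha-expansins summed to 461 and 460 TPM in OE, against 851 and 879 TPM in WT. The alpha-expansin sums were nearly equal within each genotype, and without EXPA1 they were 306 and 342 TPM in OE, against 505 and 482 TPM in WT. Within a library, where the scaling of TPM cancels, XTH transcripts were 7.38 and 10.3 times the alpha-expansin transcripts in OE, against 2.21 and 3.27 times in WT. The median log2 fold change was 0.72 over the 22 XTH genes and -0.64 over the 16 tested expansin genes, beside -0.02 over all tested features. Outside the 40 genes the medians were -0.03 over 7 tested XTH genes and 0.04 over 6 tested expansins. The 40 were picked with these data in view, so the sums, ratios and medians describe the list and not the whole families. The difference between the families was not tested.

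**Figure D3:**
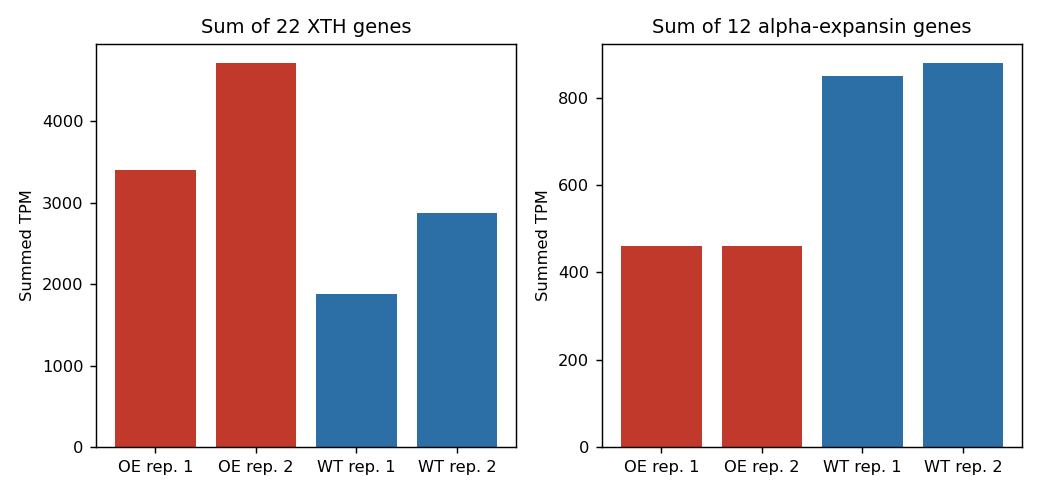
Summed TPM of the 22 XTH genes (left) and of the 12 alpha-expansin genes (right) in each library, OE in red and WT in blue, 1 bar per library with no error bar. XTH sums are 3401 and 4714 TPM in OE against 1881 and 2878 TPM in WT, and alpha-expansin sums are 461 and 460 TPM in OE against 851 and 879 TPM in WT.

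The libraries of one genotype differed among themselves. The median absolute log2 ratio of the 2 replicates was 0.52 within OE and 0.58 within WT over the 38 tested members, beside 0.33 and 0.48 over all tested features. WT replicate 1 held the lowest of the 4 values for 14 of the 22 XTH genes, against 42.9% of all features, and OE replicate 2 the highest for 13, against 18.7%. In 12 of the 38 tested members the difference between genotypes exceeded both replicate differences on the log2 scale, which 16.5% of tested features did. Of the 8 members higher at an unadjusted limma p under 0.05, 4 kept a log2 fold change above 1 without WT replicate 1. These were XTH22, EXLA1, XTH23 and XTH25 at 3.51, 1.61, 1.40 and 1.14. XTH25 entered the test only through its OE libraries, so its place here is no support for a difference. Of the 8 lower, EXPA1, EXPA10, EXPA4 and EXPA15 stayed below -1 without WT replicate 1, at -1.54, -1.50, -1.43 and -1.002. Without OE replicate 2 these genes were at -1.25, -0.65, -1.05 and -0.81, so EXPA10 and EXPA15 did not stay below -1 there. With the replicate number as a block limma called 7 members, where it called 1.69% of all tested features.

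**Figure D4:**
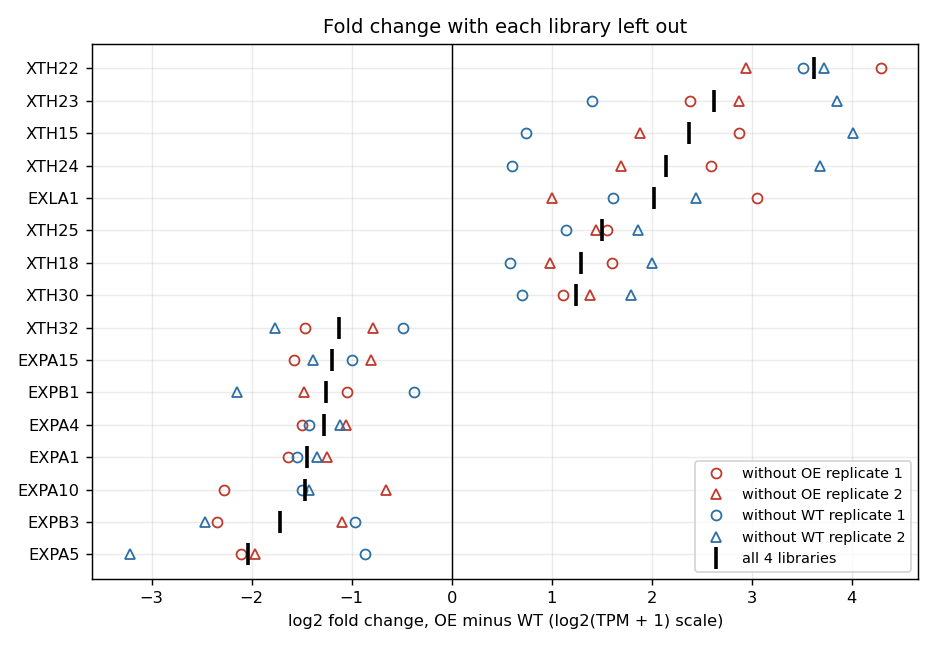
Log2 fold change of OE minus WT for the 16 members with an unadjusted limma p under 0.05, with all 4 libraries (black bars) and with each library left out (open symbols, red for OE and blue for WT, circles for replicate 1 and triangles for replicate 2). No symbol crosses 0; XTH15 runs from 0.74 without WT replicate 1 to 4.01 without WT replicate 2, while EXPA1 stays between -1.64 and -1.25.

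Genes that make and trim xyloglucan, or that lay down cellulose beside it, gave no call, where limma called 0.0900% of all tested features. With so low a share, a count of 0 in a short list is no result about its genes. Of 15 tested genes of xyloglucan synthesis limma called 0. At an unadjusted limma p under 0.05, 1 was higher and 1 lower, beside 2.69% and 2.61% of all tested features. XXT1, a xylosyltransferase that adds side chains to the glucan backbone, had 41.3 and 49.6 TPM in OE, against 16.3 and 23.7 TPM in WT (log2 fold change 1.16, SE 0.374, limma adjusted p = 0.540). XLT2, which adds galactose to them, had 10.2 and 14.4 TPM in OE, against 31.1 and 19.8 TPM in WT (log2 fold change -0.97, SE 0.385, limma adjusted p = 0.788). Neither overlapped between genotypes. The 3 enzymes that trim xyloglucan had 0 calls at either level. The galactosidase BGAL10 had a log2 fold change of 0.93 (95% interval -0.08 to 1.93) and the fucosidase AXY8 one of 0.11 (-0.72 to 0.94).

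Of 9 genes of primary wall cellulose synthesis 8 were tested, with 0 calls by limma and 0 at an unadjusted p under 0.05. The shares over all tested features were 0.0900% and 5.30%. In 5 of the 8 both OE libraries were above both WT libraries, where 13.7% of all tested features were. Cellulose synthase CESA3 had 175 and 192 TPM in OE, against 129 and 138 TPM in WT, and the endoglucanase KOR1 341 and 343 TPM against 197 and 292 TPM. Their log2 fold changes were 0.46 and 0.51. Brassinosteroids are hormones that induce XTH22 and several expansins. Of 9 genes for their synthesis and signalling 0 were called and 0 had an unadjusted limma p under 0.05. Beside shares of 0.0900% and 5.30% over all tested features, these counts are no result about the 9 genes. A part of the hormone was not tested. The P450 enzymes CPD and DWF4, which make the hormone, had log2 fold changes of 0.73 (95% interval -0.38 to 1.84) and 0.60 (-0.45 to 1.64), with overlapping groups.

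Of the 11 XTH genes outside the 40, 7 were tested, and of the 17 further expansins in the table, 6. Limma called 0 of them, and 0 had an unadjusted p under 0.05, beside 0.0900% and 5.30% of all tested features. With so few genes these counts are near those shares. Their log2 fold changes ran from -0.29 to 0.90 for the XTH genes and from -0.22 to 0.28 for the expansins. Of the untested, 2 XTH genes and 8 expansins were listed at 0 in all 4 libraries.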

How the data were processed

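Leaf RNA of 2 OE and 2 WT samples was sequenced on the Illumina platform, per the labels. Values are TPM from a table that the authors deposited for all features, and the tools listed by the submitters' processing notes are HISAT, RSEM and fastp, without version or role. Genome build, annotation and filters: not given in the sources used here. Their mean columns per genotype stayed out of every test. WT replicate 2 is so called after its title; its column in the deposited table is numbered 3, for a reason the labels do not give.

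TPM keep no read number, so depth and counting error per library are unknown. Features averaging 1 TPM or more (20010 of 33059) were tested on log2(TPM + 1), a scale that understates changes of low genes, with limma 3.58.1 in R 4.3.3 (variance trend, genotype as the only term, two-sided, Benjamini-Hochberg over all tested features, threshold 0.05). The fit had 2 residual degrees of freedom, to which limma's prior contributed 8.73. An exact two-sided permutation test of 1 gene with 2 libraries per genotype cannot go below 0.333 and was not used. Intervals of 95% come from the same fit. The fit was tested on simulated data, where it recovered most large changes and few small ones and where false calls made up more than the nominal share of its calls. The 40 members and all lists were chosen with earlier results of these data known. All members are named, those with an unadjusted p under 0.05, or with groups that do not overlap and an absolute log2 fold change of at least 1, with the value of every library; values of further members were added after they were seen. Of the other wall and brassinosteroid lists the 2 genes with the smallest p are named; XTH12, XTH13 and XTH14 were added as chromosomal neighbours. Promoters and coding sequences came from RefSeq's TAIR10.1, matched by locus tag for all 40 genes; coding identity was taken over the shorter of 2 sequences after global alignment (Biopython 1.88). Figures were drawn with matplotlib 3.10.9 under Python 3.11.15. The alternatives changed the pseudocount (0.1 or 5), the filter (none, or 5 TPM on average), the scaling (quantile or median-ratio), the variance prior (robust, or without trend) and the model (replicate block), or left out each library.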

Additional observations from a re-analysis of the deposited data

How the results depend on the processing

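Limma called 0 features and 0 members with no filter, with quantile normalization and with median-ratio scaling; an unadjusted p under 0.05 was reached by 1072, 1114 and 1137 features. Keeping features that averaged 5 TPM or more gave 63 features called and 2 members, XTH22 and XTH23. A robust prior gave 108 features and 1 member. With each library left out, 0 to 293 features and 0 to 6 members were called. Those 6, without OE replicate 1, were XTH22, XTH23, XTH15 and EXLA1 higher and EXPA10 and EXPB3 lower. A fit that leaves a genotype with 1 library assumes that it varies like the other. The 2 pseudocounts and the fit without a trend called XTH22 alone among the members. With either pseudocount and either scaling all 38 members kept their sign. The filters, the variance priors and the replicate block leave the log2 fold change of a gene as it is, so its sign could not turn there.

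The median log2 fold change of the XTH genes was 0.42 to 1.01, and that of the expansins -1.14 to -0.46, with each library left out. Members whose sign turned without 1 library had log2 fold changes in those 4 fits of -0.12 to 0.46 for XTH17, -0.88 to 2.60 for XTH19, -0.017 to 0.49 for XTH5, -0.33 to 1.61 for XTH6, -0.17 to 0.32 for XTH7, -0.35 to 0.15 for XTH8, -0.025 to 0.44 for XTH10, -1.31 to 0.27 for EXPA8, -0.033 to 0.56 for EXPA9, -0.54 to 0.71 for EXPA11 and -0.20 to 0.26 for EXPA16. The cause of these changes was not tested.

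The labels give both genotypes replicates 1 and 2 without saying that a number marks a shared batch, and deviations of same-numbered libraries correlated at 0.0325 across features. With the replicate number as a block, 338 features (1.69%) and 7 members were called: XTH22, XTH23, XTH24, XTH15 and EXLA1 higher, EXPA5 and EXPB3 lower. This fit has 1 residual degree of freedom and limma estimated an infinite prior for it, against 8.73 prior degrees of freedom in the reported fit. The fits without OE replicate 1 and 2 had 289.6 and 92.8. The larger numbers of calls came with these priors. The samples share only a number. Depth is unknown, so how far it limits the low genes XTH25, XTH10, EXPB1, EXPA2 and EXLA3 cannot be given.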

Other observations

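Some family members that are known from root hairs were detected in these leaf libraries at similar levels in both genotypes. EXPA7, an alpha-expansin known from root hair cells, had 21.0 and 16.3 TPM in OE and 13.3 and 17.2 TPM in WT. EXPA18, known from the same cells, had 23.3 and 15.2 TPM in OE and 17.2 and 20.0 TPM in WT. XTH26, an XTH gene of root hairs, had 16.7 and 12.9 TPM in OE and 11.3 and 26.8 TPM in WT. The groups of each overlapped, and their log2 fold changes of 0.27, 0.02 and -0.24 had 95% intervals of -0.53 to 1.07, -0.80 to 0.84 and -1.20 to 0.72. The root hair marker PRP3 stood beside them with 253 and 191 TPM in OE and 236 and 477 TPM in WT, while COBL9, also a root hair marker, had 7.66 and 6.51 TPM in OE and 6.86 and 6.88 TPM in WT. Of the other root markers CASP1 had 39.7 and 34.8 TPM in OE and 47.7 and 29.3 TPM in WT, SCR and SHR had 11.2 to 27.5 TPM over the 4 libraries, and NRT2.1 had 0 TPM in both OE libraries and 0 and 0.05 TPM in WT. These genes were chosen after their values were seen, and where the transcripts come from was not tested.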
